A study of Mus musculus with 20 samples.

Results

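The 10 genes described here are markers of kidney tubule injury and repair: Havcr1, Lcn2, Spp1, Clu, Sox9, Vcam1, Cd44, Krt8, Krt18 and Krt20. They were taken by name from a table of 19940 genes, and all 10 were in it. They were followed in kidney RNA of 20 male mice, with 1 library each and 5 mice in each of 4 groups. These were Tert+/+ and G3 Tert-/- mice at 7 weeks, called young, and the same genotypes at 47 weeks, called old. Tert encodes the reverse transcriptase subunit of telomerase, and G3 Tert-/- mice are the third generation bred without it, so every cell type of the animal carries the mutation and telomeres have shortened over generations. No treatment separates the groups, and the strain was not given in the sources used here. Short telomeres and kidney fibrosis are the subject of the series, and the comparisons ask how each marker differs between genotypes of the same age and between ages of the same genotype.

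When the cells of a kidney tubule are damaged, the survivors flatten, lose transporters and switch on genes that healthy tubules use little. Some of these encode proteins shed or secreted into urine (the proteins KIM-1 from Havcr1 and NGAL from Lcn2), others encode intermediate filaments, adhesion molecules or the regeneration factor Sox9. Most of these genes return to a low level when repair succeeds, and cells that keep Vcam1 or related genes are known as failed-repair cells.

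Each library was a count of transcript 3′ ends, and values are normalized read counts, in which the authors divided the reads of a gene by 1 factor per library. Libraries held 7161690 to 9757594 reads, and 1 read was worth 0.830 to 1.126 normalized counts. Where a marker is at 0, counting error alone still allows 3 reads, which are 2.49 to 3.38 normalized counts. All 13 lists of cell type markers, from proximal tubule to podocyte, urothelium and endothelium, had at least 5 markers above 0 in each group. The hepatocyte list was among them, so markers above 0 do not by themselves show that a cell type was present. Summed proximal tubule markers ran from 156565 to 432966 per library and summed hepatocyte markers from 1044 to 2315 in 19 libraries, against 3521 in Tert+/+ old replicate 4. That library and Tert+/+ young replicate 1 stood apart from the rest over all genes in earlier work on these data, and results that rest on them are given with and without them.

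7 of the 10 markers passed the filter of a normalized count of 10 or more in at least 5 libraries: Spp1, Clu, Sox9, Vcam1, Cd44, Krt8 and Krt18. Havcr1, Lcn2 and Krt20 did not, with 110, 124 and 37 reads in all 20 kidneys together. In the 7 that passed, limma called no change with genotype or age in any of 5 comparisons at an adjusted p of 0.05. Sox9 came nearest, 1.92-fold higher in old than in young G3 Tert-/- kidneys (adjusted p = 0.0543). Havcr1 was the low marker that separated groups, with 8.95 ± 3.65 normalized counts in old Tert+/+ kidneys and 1.63 ± 2.09 in old G3 Tert-/- kidneys (SD, n = 5 each).

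**Figure D1:**
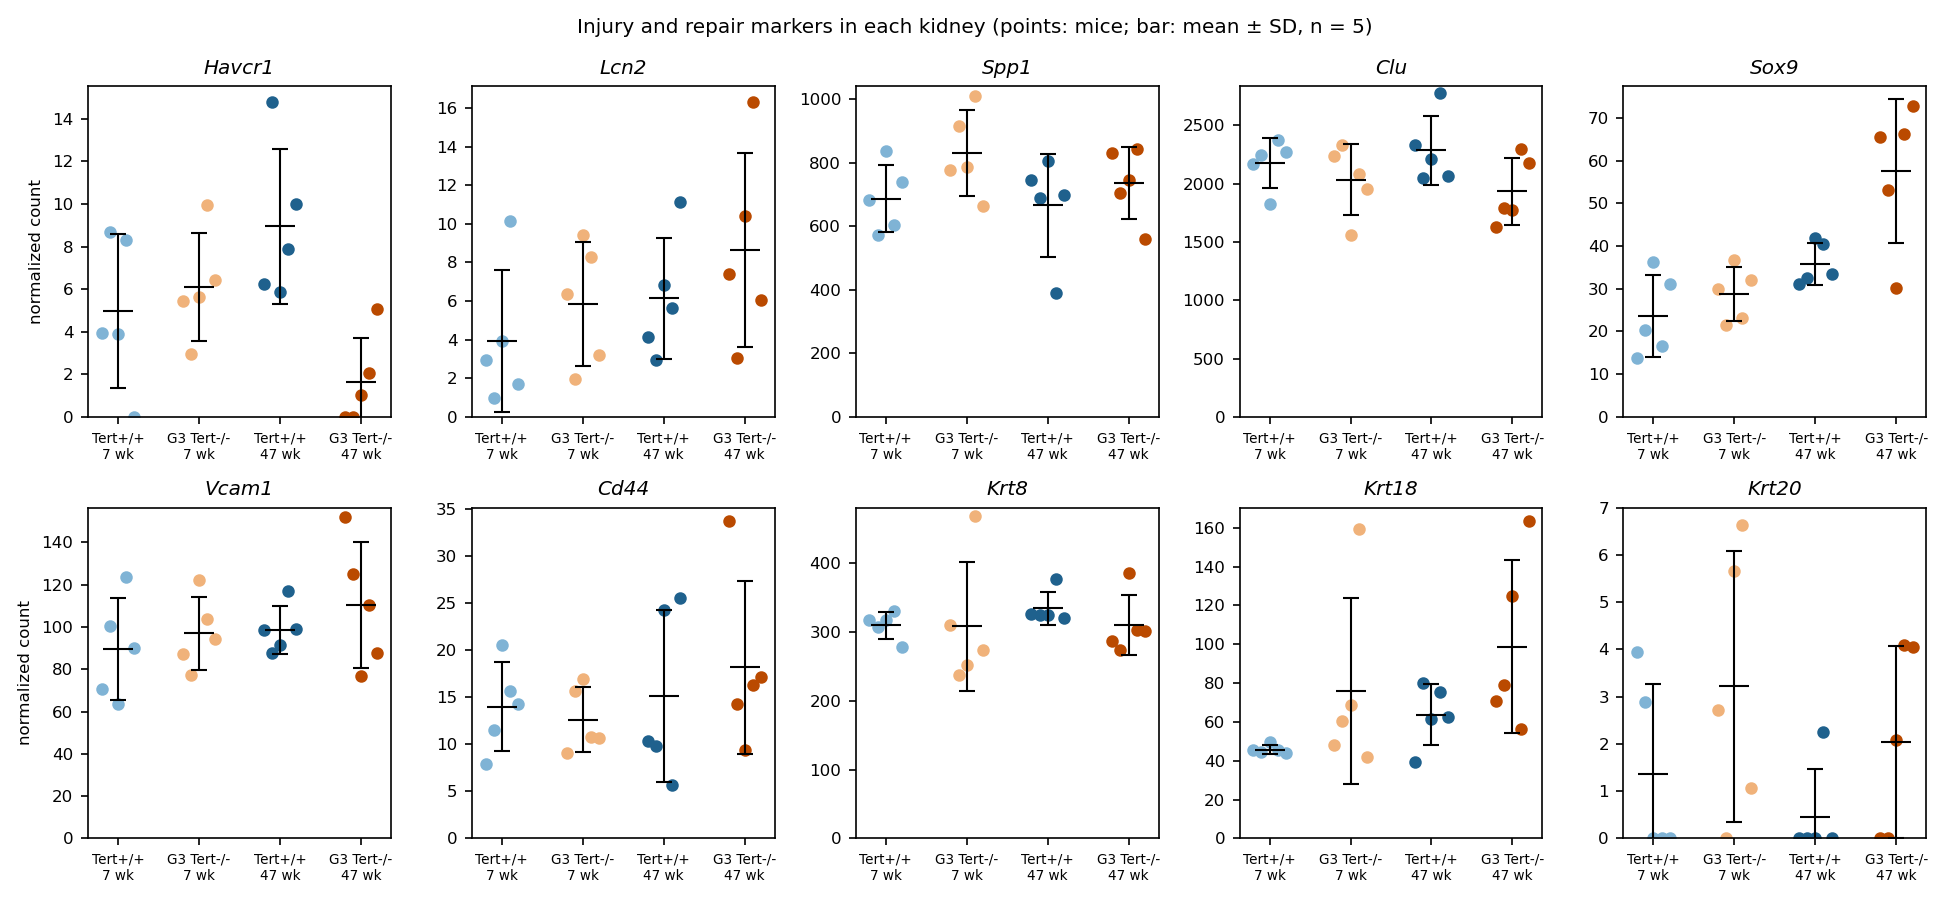
Normalized counts of the 10 markers (vertical axes, linear from 0, with a scale of their own in each panel) in the 4 groups; each point is 1 mouse, the long bar is the mean and the error bar the SD of 5 mice, drawn only above 0. Old G3 Tert-/- kidneys lie between 0 and 5.05 for Havcr1, and 4 of the 5 lie between 53.2 and 72.7 for Sox9.

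Havcr1 encodes a phosphatidylserine receptor that lets injured proximal tubule cells engulf their dead neighbours, and its shed ectodomain is measured in urine. The gene lies on the plus strand of chromosome 11 (GRCm38, 46735080 to 46779578). Young Tert+/+ kidneys held 3.94, 8.68, 3.91, 8.32 and 0 normalized counts, and young G3 Tert-/- kidneys 5.45, 2.94, 5.65, 9.97 and 6.43. Old Tert+/+ kidneys held 6.22, 14.8, 5.84, 7.88 and 10.01. Old G3 Tert-/- kidneys held 0, 0, 1.04, 2.04 and 5.05. Every old Tert+/+ kidney was above every old G3 Tert-/- kidney, while the young groups overlapped. The gap was narrow in reads: old Tert+/+ replicates 1 and 3 held 6 Havcr1 reads each, and old G3 Tert-/- replicate 5 held 5. It is within counting error. The old G3 Tert-/- group had 8 Havcr1 reads among 37269193, and the old Tert+/+ group 43 among 38726479.

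The difference of means between the old genotypes was -7.32 normalized counts, and the exact permutation test, two-sided, gave p = 0.00794, the smallest that 5 against 5 allow, and 0.0317 after adjustment over the 4 comparisons of this gene. Between old and young G3 Tert-/- kidneys it was -4.46 (exact p = 0.0159, adjusted 0.0317), with overlapping groups. The genotype difference at 7 weeks (1.12, exact p = 0.595) and the age difference in Tert+/+ (3.98, exact p = 0.143) did not pass. The genotype difference at 47 weeks minus that at 7 weeks was -8.44 (exact p = 0.0123 over 63504 arrangements, adjusted 0.0368 over 3 genes). This test was added after the data were seen. It permuted genotype labels within each age, so its null is no genotype difference at either age, not an equal difference at both. Against all genes these differences did not stand out: limma without a filter gave adjusted p = 0.193 for genotype at 47 weeks, 0.133 for age in G3 Tert-/- and 0.719 for the interaction. Of all genes in the table, 1.99% had groups that did not overlap between the old genotypes. Of the 10 markers 1 did, and with 10 genes that share was not tested against the background. The call between old genotypes was lost without G3 Tert-/- old replicate 1 or 2, the libraries at 0 (adjusted p = 0.0635 each, exact permutation test). The age call in G3 Tert-/- was lost without G3 Tert-/- young replicate 1, 3, 4 or 5 (0.0635) and without G3 Tert-/- old replicate 1, 2, 3 or 4 (0.0794). Leaving out G3 Tert-/- old replicate 3, 4 or 5 instead kept the call between old genotypes (adjusted p = 0.0317 each, exact permutation test). The old genotypes did not overlap in any of these cases, and the cause of the losses was not tested. Summed proximal tubule markers (10 of 10 in the table, none at 0) were 156565 to 225845 in old G3 Tert-/- and 202758 to 267741 in old Tert+/+ kidneys, and their part in the Havcr1 result was not tested. In whole tissue, fewer cells of a type and less RNA per cell cannot be told apart, here and in every result that follows.

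The start regions of the markers were searched for motifs. A Havcr1 window is shown, since this is the marker whose groups separated and the window holds a match. RefSeq (GRCm38.p6) gives Havcr1 3 start windows of 250 bases before and 50 bases from the start. The window shown lies on the plus strand at chr11:46750918-46751217. It was the one of 10 windows, found for 7 markers, that held the motif TGANTCA, where N is any base. That is a loose form of the site bound by the AP-1 factors Jun and Fos. The match, TGAATCA in capitals, begins at position 11 after the start, and its middle base is A, where the usual AP-1 site has C or G. Among 32851 windows of all genes, 7.81% hold that motif on either strand, so 1 window in 10 is near that share.
Havcr1: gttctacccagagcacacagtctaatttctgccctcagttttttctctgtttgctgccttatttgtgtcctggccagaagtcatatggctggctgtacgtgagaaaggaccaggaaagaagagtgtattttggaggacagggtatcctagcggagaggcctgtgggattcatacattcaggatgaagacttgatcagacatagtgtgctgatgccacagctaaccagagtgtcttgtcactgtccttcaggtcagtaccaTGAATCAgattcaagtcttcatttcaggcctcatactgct

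Lcn2 encodes lipocalin 2, a protein that binds iron siderophores and is made by stressed distal tubule cells and stored by neutrophils. It lies on the minus strand of chromosome 2 (32384633 to 32388252). Young Tert+/+ kidneys held 2.95, 0.964, 3.91, 10.2 and 1.68 normalized counts and young G3 Tert-/- kidneys 6.36, 1.96, 9.42, 8.30 and 3.22. Old Tert+/+ kidneys held 4.14, 2.96, 6.82, 5.63 and 11.1, and old G3 Tert-/- kidneys 7.39, 3.07, 10.4, 16.3 and 6.06. All 4 groups overlapped, and the highest value, 16.3, was in an old G3 Tert-/- kidney. Between the old genotypes the difference of means was 2.52 normalized counts (exact permutation p = 0.405), and the smallest p of the 4 comparisons was 0.333. Of 10 neutrophil markers, 5 were in the table, and their sum was 77.9 to 273 in old G3 Tert-/- kidneys and 68.0 to 95.4 in old Tert+/+ kidneys. Their part in the Lcn2 values was not tested.

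Spp1 encodes osteopontin, a secreted phosphoprotein that binds integrins and CD44 (chromosome 5, plus strand, 104435118 to 104441050). Normalized counts were 682, 574, 836, 604 and 740.4 in young Tert+/+ kidneys and 777, 917, 787, 1011 and 665 in young G3 Tert-/- kidneys. They were 746, 689.6, 806, 389.6 and 699 in old Tert+/+ kidneys and 830.3, 705, 746, 843 and 559.7 in old G3 Tert-/- kidneys. The 4 groups overlapped, and the 389.6 of Tert+/+ old replicate 4 was the lowest of the 20 libraries. The log2 fold change of G3 Tert-/- against Tert+/+ was 0.17 at 47 weeks (95% interval -0.17 to 0.52, limma adjusted p = 0.889) and 0.27 at 7 weeks (-0.07 to 0.62, adjusted p = 0.524). Without Tert+/+ old replicate 4 the value at 47 weeks was -0.00935, so its direction rested on that library. The gene Gm42793 overlaps Spp1 on the same strand, and reads in the overlap may have been counted for neither gene.

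Clu encodes clusterin, a secreted chaperone that rises in many forms of tubule damage (chromosome 14, plus strand, 65968483 to 65981547). Its values were 2167, 2246, 1824, 2377 and 2276 in young Tert+/+ kidneys and 2242, 2336, 1565, 2086 and 1951 in young G3 Tert-/- kidneys. Old Tert+/+ kidneys held 2336, 2049, 2209, 2778 and 2068, and old G3 Tert-/- kidneys 1632, 1789.8, 1775, 2301 and 2179. In 3 old G3 Tert-/- kidneys Clu was below every old Tert+/+ kidney, and in the other 2 it was within their range. The log2 fold change between the old genotypes was -0.24 (95% interval -0.50 to 0.01, limma adjusted p = 0.772). The kidney-to-kidney spread was small, with a within-group SD of 0.19 log2 units, and 81.7% of tested genes had a larger one. With group means removed, Clu fell as fibroblast and pericyte markers rose (r -0.69, permutation adjusted p = 0.0294) and rose with hepatocyte markers (r 0.63, adjusted p = 0.0424), but by rank neither passed (rho -0.60 and 0.63, adjusted p = 0.0962 and 0.0803, n = 20). Their r without the 2 farthest kidneys was -0.54 and 0.69, and without the 2 that stand apart -0.67 and 0.56.

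Sox9 encodes a transcription factor that surviving tubule cells switch on soon after damage and silence as they redifferentiate (chromosome 11, plus strand, 112782224 to 112787760). Young Tert+/+ kidneys held 13.8, 20.3, 36.2, 16.6 and 31.1 normalized counts, and young G3 Tert-/- kidneys 30.0, 21.5, 36.7, 23.3 and 32.2. In old Tert+/+ kidneys it was 31.1, 32.5, 41.9, 40.5 and 33.4. Old G3 Tert-/- kidneys held 65.5, 53.2, 30.1, 66.4 and 72.7. 4 of the 5 old G3 Tert-/- kidneys were above all 15 other libraries, and the 5th, replicate 3, was below every old Tert+/+ kidney. Group means ran in the order young Tert+/+ (23.6 ± 9.64), young G3 Tert-/- (28.7 ± 6.31), old Tert+/+ (35.9 ± 4.95) and old G3 Tert-/- (57.6 ± 16.9), and no pair of neighbours in that order that was tested passed.

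The log2 fold change of Sox9 with age was 0.94 in G3 Tert-/- (SE 0.26, 95% interval 0.41 to 1.48, limma adjusted p = 0.0543) and 0.66 in Tert+/+ (SE 0.26, 0.13 to 1.20, adjusted p = 0.325). Between genotypes it was 0.62 at 47 weeks (0.08 to 1.15, adjusted p = 0.681) and 0.34 at 7 weeks (-0.20 to 0.87, adjusted p = 0.609). The interaction was 0.28 (-0.47 to 1.03, adjusted p = 0.913), so a change of the genotype difference with age was not shown. The age value in G3 Tert-/- lay on the edge of the threshold: edgeR gave adjusted p = 0.0311, DESeq2 0.00633, and limma 0.0128 without G3 Tert-/- old replicate 3. Leaving out Tert+/+ young replicate 1, 3 or 5, or both libraries that stand apart, also took it past 0.05, with the same fold change. Leaving out any other library gave 0.0510 to 0.157. The gene whose order over the 20 libraries was most like that of Sox9 was Ccr2, a chemokine receptor of monocytes (Spearman rho 0.866). The splicing factor Isy1 came next (0.777). Both were chosen as the highest of the tested genes searched, with group means kept. The search left out the 10 markers and genes with only a Gm, Rik or identifier name. For the other tested markers the highest rho was 0.783 (Vcam1 with Zfp235) to 0.899 (Krt18 with Krt5), so a value of this size was not particular to Sox9. Ccr2 was 72.9, 65.5, 43.6, 70.5 and 102 in old G3 Tert-/- kidneys and 50.7 to 66.8 in old Tert+/+ kidneys, with replicate 3 again the lowest of its group. The summed neutrophil markers (5 of 10 in the table) were 175, 135, 77.9, 189 and 273 in old G3 Tert-/- kidneys, the same order as Sox9, and 68.0 to 95.4 in old Tert+/+ kidneys. With group means removed, none of the 13 cell type lists passed with Sox9 over the 20 kidneys. Spearman's rho was 0.45 with neutrophil markers (permutation adjusted p = 0.271), -0.51 with proximal tubule markers (0.186) and -0.47 with collecting duct principal cell markers (0.242). Pearson's r with these lists was 0.28, -0.50 and -0.59 (permutation adjusted p = 0.488, 0.215 and 0.0910). For macrophage markers rho was 0.08 and r 0.05 (permutation adjusted p = 0.858 and 0.889). The part of these cell types in the Sox9 values was not tested.

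Vcam1 encodes the adhesion molecule that binds leukocyte integrin alpha 4 beta 1, and it is made both by failed-repair tubule cells and by endothelium (chromosome 3, minus strand, 116109949 to 116129688). Normalized counts were 70.9, 100.3, 63.6, 124 and 90.03 in young Tert+/+ kidneys and 87.2, 77.3, 122, 104 and 94.3 in young G3 Tert-/- kidneys. They were 98.4, 87.7, 91.5, 117 and 99.0 in old Tert+/+ kidneys and 152, 125, 76.9, 110.3 and 87.9 in old G3 Tert-/- kidneys. The old G3 Tert-/- group held both a lowest and a highest value outside the range of old Tert+/+ kidneys. The log2 fold changes ran from 0.12 to 0.17 over the genotype and age comparisons, and the smallest adjusted p was 0.755 (limma).

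Cd44 encodes the hyaluronan receptor of regenerating tubule cells, fibroblasts and leukocytes, and osteopontin is one of its ligands (chromosome 2, minus strand, 102811141 to 102901665). It was 7.87, 11.6, 20.5, 15.7 and 14.3 in young Tert+/+ kidneys and 9.08, 15.7, 17.0, 10.8 and 10.7 in young G3 Tert-/- kidneys. In old Tert+/+ kidneys it was 10.4, 9.85, 24.3, 5.63 and 25.6, and in old G3 Tert-/- kidneys 33.8, 14.3, 9.35, 16.3 and 17.2. The groups overlapped throughout, and the within-group SD of 0.61 log2 units was among the wide ones, with 10.2% of tested genes wider. The largest of the 4 log2 fold changes was 0.41 for age in G3 Tert-/- (95% interval -0.36 to 1.18, limma adjusted p = 0.667). Cd44 moved with the fibroblast and pericyte markers from kidney to kidney once group means were removed. Pearson's r was 0.67 (permutation adjusted p = 0.0294) and Spearman's rho 0.72 (adjusted p = 0.0228) over 20 kidneys, with an r of 0.76 without the 2 kidneys farthest on the marker axis and 0.57 without the 2 that stand apart. This was 1 of 91 relations between 7 markers and 13 cell type lists. It was 1 of 2 that passed by both measures. Cd44 also fell as proximal tubule markers rose, which passed by Pearson's r (-0.63, permutation adjusted p = 0.0424). By Spearman's rho it did not (-0.60, permutation adjusted p = 0.0962). Its r was -0.63 without the 2 farthest kidneys and -0.52 without the 2 that stand apart.

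**Figure D2:**
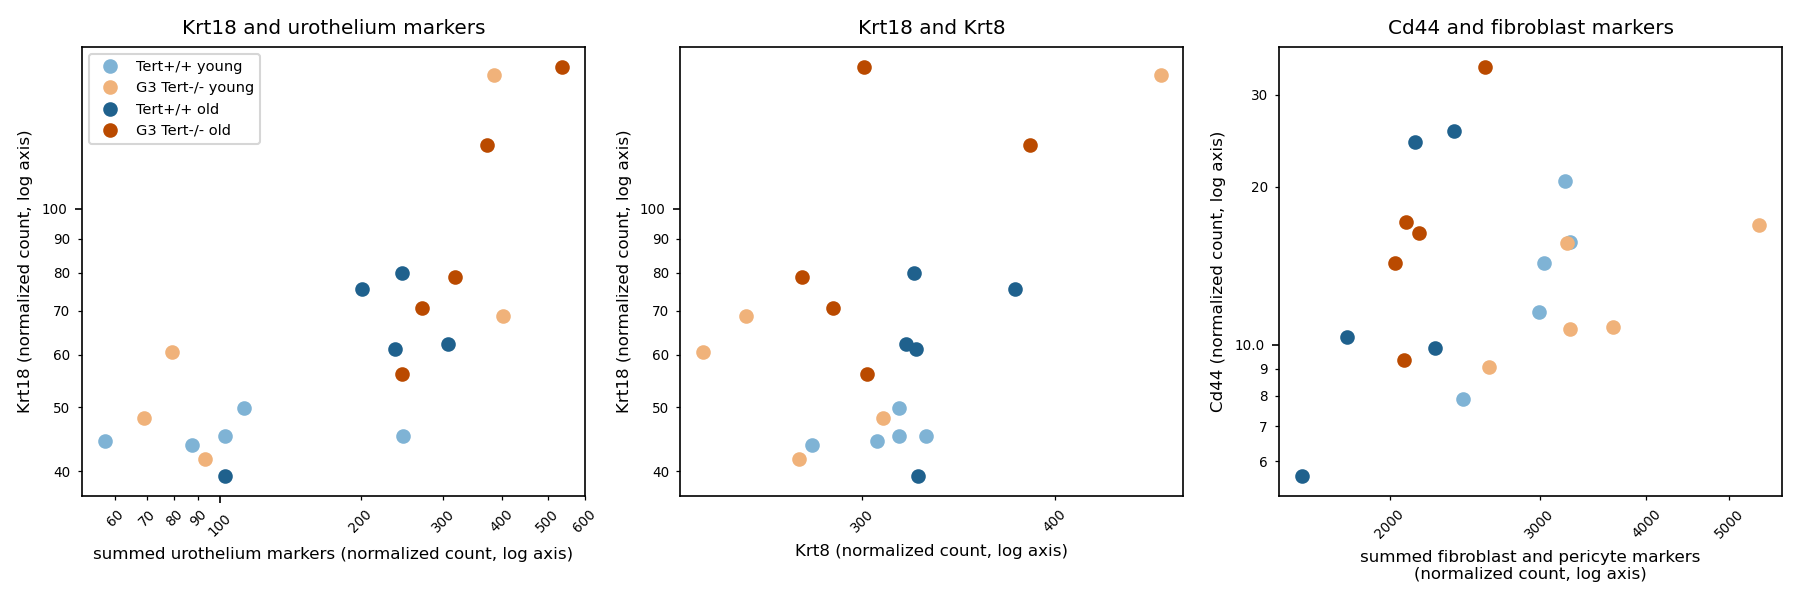
Krt18 against summed urothelium markers, Krt18 against Krt8, and Cd44 against summed fibroblast and pericyte markers, all as normalized counts on log axes; each point is 1 of 20 kidneys, coloured by group. The correlations in the text were computed after group means were removed, so they describe the scatter within each colour; the 3 kidneys with the most Krt18 (125 to 164) have urothelium sums of 372 to 537, and 1 kidney with a sum of 401 has a Krt18 of 68.8.

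Krt8 and Krt18 encode the type II and type I keratins that pair into the filaments of simple epithelia, and Krt20 is a keratin of umbrella cells of the urothelium that also appears in damaged proximal tubule. Krt8 lies on the minus strand of chromosome 15 (101996698 to 102004482), and Krt18 on the plus strand (102028180 to 102032027), 23697 bases away. Krt20 lies on chromosome 11 (minus strand, 99428403 to 99438150). Start windows of Krt8 and Krt18 are shown because these partner keratins, encoded close to each other, were tested for moving together. The window of Krt20 is shown beside them as the other keratin among the markers, and no pair with it was tested. Capitals mark matches to the TATA box letters TATAAA on either strand, which 13.6% of all windows hold. The Krt8 window (chr15:102004293-102004592, minus strand) holds a pair of overlapping matches that begin at positions -3 and -1 and run across its start. Krt20 (chr11:99438104-99438403, minus strand) holds 1 at position -29, and Krt18 (chr15:102027966-102028265, plus strand) holds none of these letters. None of the 3 windows holds TGANTCA. The GC box GGGCGG, in 35.7% of all windows, and the STAT motif TTCNNNGAA, in 8.3%, are not in them either.
Krt8: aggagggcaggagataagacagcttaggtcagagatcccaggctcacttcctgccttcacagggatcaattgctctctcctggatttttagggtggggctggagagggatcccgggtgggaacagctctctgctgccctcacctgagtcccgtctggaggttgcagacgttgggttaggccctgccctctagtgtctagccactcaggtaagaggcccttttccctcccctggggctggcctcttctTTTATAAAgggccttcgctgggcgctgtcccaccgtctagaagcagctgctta
Krt18: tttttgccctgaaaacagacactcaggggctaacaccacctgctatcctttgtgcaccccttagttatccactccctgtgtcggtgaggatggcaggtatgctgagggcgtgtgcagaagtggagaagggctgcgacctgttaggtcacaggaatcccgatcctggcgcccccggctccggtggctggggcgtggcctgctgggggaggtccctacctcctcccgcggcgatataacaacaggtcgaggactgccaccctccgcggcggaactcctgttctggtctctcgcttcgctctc
Krt20: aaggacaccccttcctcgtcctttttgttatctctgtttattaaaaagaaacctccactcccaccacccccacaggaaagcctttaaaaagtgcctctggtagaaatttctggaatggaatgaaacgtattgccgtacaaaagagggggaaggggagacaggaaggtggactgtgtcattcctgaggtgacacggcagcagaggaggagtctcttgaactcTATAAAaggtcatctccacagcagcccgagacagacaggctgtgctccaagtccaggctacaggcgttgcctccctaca

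Krt8 differed little between group means. Young Tert+/+ kidneys held 317, 307, 317, 329.95 and 279 normalized counts, and young G3 Tert-/- kidneys 309.8, 237, 252.4, 468 and 273. Old Tert+/+ kidneys held 326, 324, 325, 377 and 320.5, and old G3 Tert-/- kidneys 287, 274, 385, 302 and 301. The groups overlapped, and the log2 fold changes ran from -0.12 to 0.11, none with an adjusted p below 0.829 (limma). In Tert+/+ kidneys, the interval for age was -0.18 to 0.40.

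Krt18 varied more than its partner. Young Tert+/+ kidneys were close together, at 45.3, 44.4, 49.9, 45.3 and 43.8 normalized counts. Young G3 Tert-/- kidneys held 48.1, 60.7, 68.8, 159 and 41.8. In old Tert+/+ kidneys it was 39.4, 79.8, 61.3, 75.5 and 62.3, and old G3 Tert-/- kidneys 70.8, 78.8, 125, 56.2 and 164. The 3 highest values, 125, 159 and 164, were all in G3 Tert-/- kidneys, 1 young and 2 old, and the groups overlapped in every comparison. The log2 fold change between genotypes was 0.56 at 47 weeks (SE 0.30, 95% interval -0.06 to 1.17, limma adjusted p = 0.781) and 0.54 at 7 weeks (SE 0.30, -0.07 to 1.16, adjusted p = 0.493). A stretch of 328 bases near the end of the Krt18 transcript is 92.4% identical to the copy Gm5200, so some reads may have been assigned to neither.

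Krt18 followed urothelium markers from kidney to kidney. With group means removed, Pearson's r with their sum was 0.67 (permutation adjusted p = 0.0294) and Spearman's rho 0.79 (adjusted p = 0.00455, n = 20). Without the 2 kidneys farthest on the marker axis r was 0.64, and without the 2 libraries that stand apart it was 0.73. All 10 urothelium markers were in the table, and their sum was 56.9 to 246 in young Tert+/+, 69.0 to 401 in young G3 Tert-/-, 103 to 307 in old Tert+/+ and 245 to 537 in old G3 Tert-/- kidneys. G3 Tert-/- old replicate 5 had the most Krt18 (164) and the highest sum (537), while G3 Tert-/- young replicate 3 had the next highest sum (401) with a Krt18 of 68.8. The genes most like Krt18 over the 20 libraries were Krt5, the basal urothelial keratin (rho 0.899), and Sprr1a, a cornified envelope protein (0.883). They were chosen as the highest of the tested genes searched, with group means kept. The search left out the 10 markers and genes with only a Gm, Rik or identifier name. Krt5 passed the filter only through G3 Tert-/- kidneys and is itself in the urothelium list. Krt5 was 13.7, 9.21, 12.5, 3.06 and 25.3 in old G3 Tert-/- kidneys and 0, 0.979, 11.3, 13.3 and 0 in young G3 Tert-/- kidneys. It was 0 to 6.68 in old and 0 to 0.984 in young Tert+/+ kidneys, so old G3 Tert-/- kidneys overlapped both groups they are compared with. The part of urothelium content in the Krt18 values was not tested.

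Krt20 was near the limit of counting. It was at 0 in 10 of 20 libraries, and its 37 reads gave 3.94, 2.89, 0, 0 and 0 normalized counts in young Tert+/+ kidneys and 2.73, 0, 5.65, 6.64 and 1.07 in young G3 Tert-/- kidneys. Values in old Tert+/+ kidneys were 0, 0, 0, 2.25 and 0, and old G3 Tert-/- kidneys 0, 0, 2.08, 4.09 and 4.04. G3 Tert-/- groups had 18 and 10 reads, and Tert+/+ groups 7 and 2. No comparison passed (smallest exact permutation p = 0.286, for genotype at 47 weeks).

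Of 5 pairs of markers chosen by role, Krt8 and Krt18 had the highest correlation after group means were removed, with r 0.62 (permutation adjusted p = 0.0320, n = 20) and rho 0.42 (adjusted p = 0.158). It rested on G3 Tert-/- old replicate 3 and G3 Tert-/- young replicate 4, without which r was 0.17. Spp1 and its receptor gene Cd44 had r 0.52 (permutation adjusted p = 0.0471), rho 0.43 (adjusted p = 0.158) and an r of 0.37 without the 2 farthest kidneys. Without the 2 libraries that stand apart, neither pair passed (r 0.61 and 0.30, permutation adjusted p = 0.0543 and 0.293). The other 3 pairs did not pass: Vcam1 with Cd44 (r 0.20), Spp1 with Clu (r -0.37) and Sox9 with Krt8 (r -0.35), with permutation adjusted p of 0.389, 0.166 and 0.166.

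**Figure D3:**
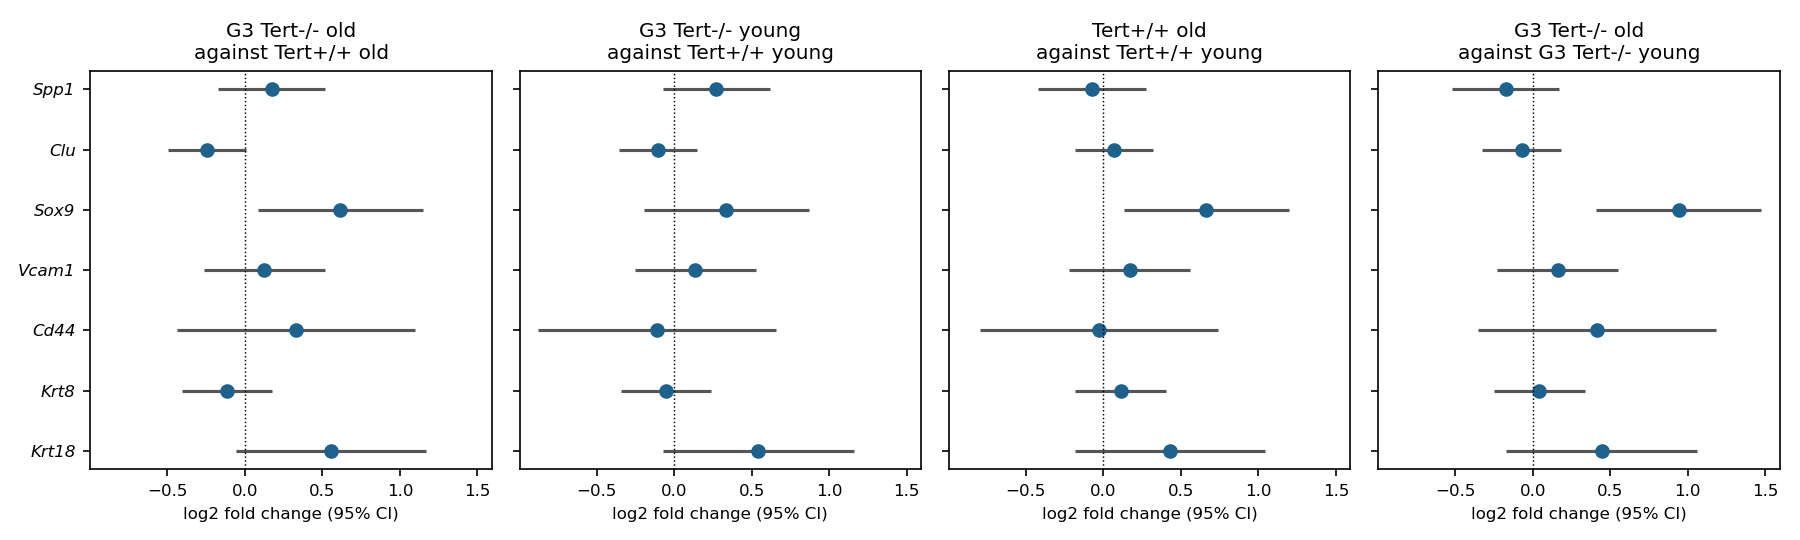
Log2 fold changes (points) and 95% confidence intervals (lines) of the 7 markers that passed the filter, from limma, in the 4 comparisons of 5 against 5 kidneys; the dotted line marks no change. The interval of Sox9 lies above 0 in 3 of the 4 panels before adjustment, and those of the other 6 markers include 0.

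Counted as a group, the 7 tested markers gave 0 calls in every comparison with limma. The share of all 14630 tested genes called was 0.0957% for genotype at 47 weeks (14 genes), 0% for genotype at 7 weeks, 0.649% for age in Tert+/+ (95), 2.24% for age in G3 Tert-/- (327) and 0.00684% for the interaction (1). A count of 0 in 7 is therefore near the background in each. At an unadjusted p under 0.05 there was 1 marker, Sox9, for genotype at 47 weeks and for age in each genotype, and 0 for genotype at 7 weeks and the interaction. Of all tested genes, 6.58%, 10.6% and 14.9% were under it for genotype at 47 weeks, age in Tert+/+ and age in G3 Tert-/-, so 1 of 7 is near the background. edgeR and DESeq2 each called 1 marker, Sox9, for age in G3 Tert-/- and 0 in the other comparisons. At 7 weeks, where limma called 0 genes, 1559 had an unadjusted p under 0.05, edgeR called 0 and DESeq2 13. The median log2 fold change of the 7 was 0.17 for genotype at 47 weeks, 0.13 at 7 weeks, 0.11 for age in Tert+/+ and 0.16 for age in G3 Tert-/-, beside medians of 0.00 to 0.01 over all tested genes. The numbers above 0 were 5, 4, 5 and 5 of 7, beside 50.2% to 52.1% of all tested genes. Groups that did not overlap were found for 0 of the 10 markers with genotype at 7 weeks, age in Tert+/+ and age in G3 Tert-/-, where 1.27%, 2.25% and 3.78% of all genes in the table separated. The comparisons share groups, so these counts are not independent of each other.

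Other genes of the injured tubule were read from 5 lists. Of all tested genes, 0.0957% were called for genotype at 47 weeks, 0.649% for age in Tert+/+ and 2.24% for age in G3 Tert-/-. Counts in the lists were not tested against these shares. Of 35 genes of injured or failed-repair tubule cells, 27 were tested and 1 passed: Cp, the copper ferroxidase ceruloplasmin. Cp rose with age in G3 Tert-/- from 299 ± 49.0 to 687 ± 57.4 normalized counts (2.31-fold, limma adjusted p = 1.02e-05) and in Tert+/+ from 331 ± 43.6 to 534 ± 114 (1.59-fold, adjusted p = 0.0219). The call in G3 Tert-/- was kept under all 29 alternatives run, and that in Tert+/+ under 23. The other 26 did not pass in any comparison. The median of the list was 0.22 for genotype at 47 weeks and 0.08 for age in G3 Tert-/-. Of 16 tested inflammatory genes, Tnfaip2, induced by tumour necrosis factor, rose with age in G3 Tert-/- (334 ± 36.1 to 469 ± 72.9, 1.40-fold, adjusted p = 0.0386, kept under 21 of 29). None of the others passed, and the list medians for the same comparisons were 0.16 and 0.12.

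Keratin filament partners gave no call among 18 tested genes, although the list had medians of 0.25 for genotype at 47 weeks and 0.30 for age in G3 Tert-/-, with 12 and 14 genes above 0. Krt5 and Krt15 in that list are also in the urothelium list, whose sums in each group are given above. Of 18 tested receptors, ligands and sheddases of the markers' proteins, 1 passed: Hyal1, a lysosomal hyaluronidase, rose with age in Tert+/+ (31.4 ± 11.1 to 56.2 ± 9.08, 1.84-fold, limma adjusted p = 0.0453). That call was kept under 9 of 29 alternatives, and was lost without both libraries that stand apart (adjusted p = 0.0586). Of 23 genes of the differentiated proximal tubule, which injured cells are known to lose, 0 rose and 1 fell with genotype at 47 weeks, and 3 fell with age in G3 Tert-/-. Of all tested genes, 0.0957% and 2.24% were called in these comparisons, in either direction. Acsm2, a medium-chain acyl-CoA synthetase, was 34858 ± 3777 in old Tert+/+, 23105 ± 1323 in old G3 Tert-/- and 39219 ± 3214 in young G3 Tert-/- kidneys (adjusted p = 0.0238 for genotype and 0.000211 for age). The genotype call was kept under 20 of 29 alternatives and the age call under all 29. The glucose transporter gene Slc5a2 fell 1.49-fold with age in G3 Tert-/- (1414 ± 207 to 958 ± 206, adjusted p = 0.0338, kept under 22 of 29). The organic anion transporter gene Slc22a6 fell 1.61-fold (5501 ± 560 to 3408 ± 189, adjusted p = 0.0399, kept under 16 of 29). The list's median for age in G3 Tert-/- was -0.29, beside 0.00 over all genes.

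Calls of these lists that were not kept throughout were mostly lost when 1 library was left out. For Cp in Tert+/+ these were young Tert+/+ replicate 2 and old Tert+/+ replicates 1, 2, 3 and 5 (limma adjusted p = 0.0514 to 0.0864). The genotype call of Acsm2 was lost without old Tert+/+ replicate 1, 4 or 5 or old G3 Tert-/- replicate 1, 2, 4 or 5 (0.0550 to 0.129). Tnfaip2 did not pass without young G3 Tert-/- replicate 1, 2, 4 or 5, old G3 Tert-/- replicate 2, 4 or 5 or old Tert+/+ replicate 5 (0.0512 to 0.132). Slc5a2 did not pass without young G3 Tert-/- replicate 1, 2, 3 or 4 or old G3 Tert-/- replicate 2, 4 or 5 (0.0549 to 0.117). Slc22a6 did not pass without any 1 of the 10 G3 Tert-/- libraries or without old Tert+/+ replicate 2, 3 or 5 (0.0505 to 0.120). Hyal1 did not pass without any 1 of 16 of the 20 libraries (0.0507 to 0.133), so its call was the least firm of these. All of these fold changes kept their direction.

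**Figure D4:**
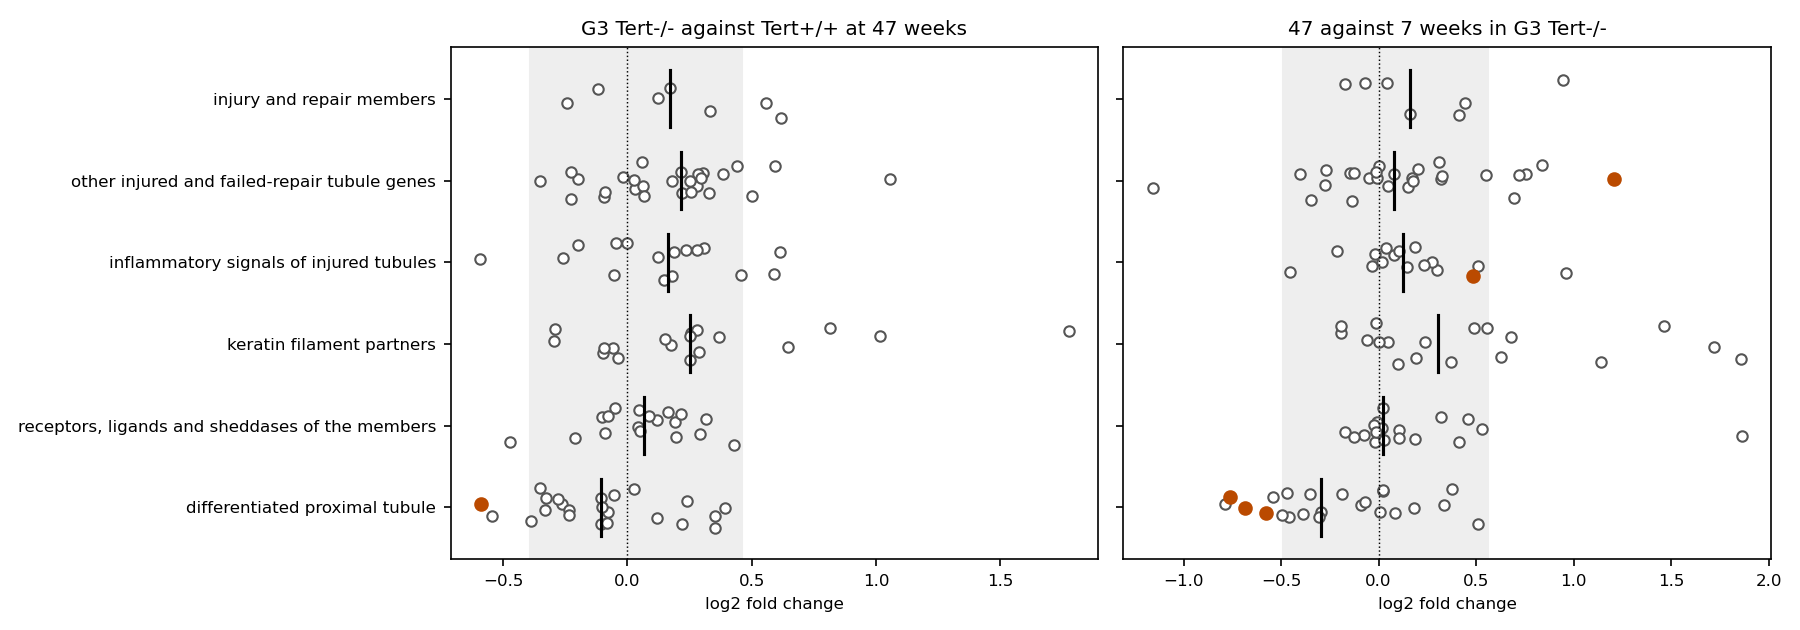
Log2 fold changes of the tested genes of each list in 2 comparisons, with filled points for genes that passed (limma, adjusted p under 0.05), open points for the rest, vertical bars for list medians and a grey band from the 5th to the 95th percentile of all tested genes; vertical scatter within a row has no meaning. Filled points are Acsm2 on the left, and Cp, Tnfaip2, Acsm2, Slc5a2 and Slc22a6 on the right.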

How the data were processed

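Each sample gave 1 library of transcript 3′ ends (QuantSeq, reads in the sense direction), made from 300 ng of RNA, per the labels' protocols, which give a mean RNA quality score of 6.6 (5.0 to 7.5). Per the submitters' processing notes, the build was GRCm38, and DESeq2, HTSeq 0.6.1, SAMtools 0.1.19, TopHat2 2.0.10, Bowtie 1.0.0 and FastQC 0.11.7 were used, in roles not given there. The deposited signal is a normalized count, divided by the authors by 1 factor per library, as the values show. In every library 100% of values were whole multiples of 1 step (tolerance 1e-06), so whole reads were recovered by division.

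Genes at 10 or more in at least 5 libraries (14630 of 19940) were fitted with limma 3.58.1 (R 4.3.3) on log2(normalized count + 1), with a trend, as 1 model of 4 group means. Its p-values are two-sided and carry Benjamini-Hochberg adjustment over the 14630 genes. Fold changes are on that scale, which understates those of low genes. Markers below the filter had exact two-sided permutation tests (SciPy 1.17.1), adjusted over the 4 comparisons of each gene. Correlations used 100000 permutations and values with group means removed. edgeR 4.0.16 and DESeq2 1.42.0 on recovered reads, pseudocounts of 0.5 and 5, no filter, a filter of 50, TMM scaling, fits of 2 groups alone and leaving out libraries were alternatives. The fit was checked on simulated data. Coordinates are from GENCODE M21 and start windows from RefSeq. Copies of 3′ ends were sought over 400 bases with BLAST 2.17.0.

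All 10 markers were described. From each gene list up to 4 genes per comparison that passed the test are named. For each tested marker the 2 genes with the highest rank correlation to it may be named. That search left out the markers and genes with only a Gm, Rik or identifier name. The markers, lists and tests were chosen with earlier results of these data known. Replicate numbers follow the listing and pair no mice, and no litter or batch is labelled. p-values measure only the spread between these samples, which may be technical.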

Additional observations from a re-analysis of the deposited data

Results flagged for a closer look

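In 40 groups of 5 values (10 markers in 4 groups), 6 had a highest or lowest value far from the other 4 for the width of the group, where chance gives about 1 in 20. Tert+/+ old replicate 4 held 2 of the 6 with well-counted genes, the lowest Spp1 of its group (389.6 normalized counts) and the highest Krt8 (377). It held 335 Krt8 reads and Tert+/+ old replicate 3 held 334, with 1 read worth 1.126 and 0.974 normalized counts. The Krt8 flag therefore rests on a narrow group. Tert+/+ old replicate 4 was also the one old Tert+/+ kidney with Krt20 above 0 (2.25), and this is 1 of the 6. It was 2 reads, below that library's limit of 3.38 normalized counts. With the other 4 kidneys at 0, any value would be flagged, so the 1 in 20 does not apply to it. In Tert+/+ old replicate 4 the summed hepatocyte markers were 3521, against at most 2315 in any other. Krt8 was also far above its group in G3 Tert-/- old replicate 3 (385), the kidney with the lowest Sox9 of its group. Krt18 was far above its group in G3 Tert-/- young replicate 4 (159), where the urothelium sum was 384. It was also flagged in Tert+/+ young replicate 3 (49.9), where the other 4 kidneys lay between 43.8 and 45.3. That kidney held 51 Krt18 reads and the other 4 held 46 to 52, so this flag rests on a narrow group. For Havcr1 the genotype difference at 47 weeks minus that at 7 weeks was -8.44 normalized counts. The exact permutation p was 0.0123, with genotype labels permuted within each age. For the interaction, limma without a filter gave adjusted p = 0.719. The part of tissue content in these values was not tested.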

How the results depend on the processing

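For age in G3 Tert-/-, the 7 tested markers gave 0 calls with limma and 1 (Sox9) with edgeR, DESeq2, a pseudocount of 5, the 2 groups alone or without both libraries that stand apart. Leaving out 1 library gave 0 to 1. In the other comparisons the count was 0 under every alternative run. The 2 calls of low markers, both Havcr1, became 0 to 2 without 1 library and 0 with limma without a filter. The 2 marker pairs that passed became 0 without both libraries that stand apart.

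None of the log2 fold changes that turned sign had passed its test. Without both libraries that stand apart these were Spp1 for genotype at 47 weeks (-0.00935), and for age in Tert+/+ Spp1 (0.11), Clu (-0.00502) and Cd44 (0.0657). Cd44 for age in Tert+/+ was 0.116 with edgeR and 0.116 with DESeq2. The interaction of Vcam1 was 0.0512 with edgeR, 0.0518 with DESeq2 and 0.13 without both libraries, and that of Krt18 -0.11 with edgeR and -0.0977 with DESeq2. limma without a filter gave an interaction of -0.21 for Lcn2 and 0.0498 for Krt20. Leaving out 1 library moved genotype at 47 weeks over -0.00935 to 0.27 for Spp1 and -0.000611 to 0.24 for Vcam1. For genotype at 7 weeks the ranges were -0.29 to 0.0338 for Cd44, -0.21 to 0.0324 for Krt8 and -0.125 to 2.05 normalized counts for Havcr1. For age in Tert+/+ they were -0.15 to 0.11 (Spp1), -0.00463 to 0.11 (Clu) and -0.26 to 0.24 (Cd44), and for age in G3 Tert-/- -0.0392 to 0.21 (Krt8). Interactions ran from -0.14 to 0.11 (Vcam1), -0.15 to 0.0953 (Krt8) and -0.19 to 0.32 (Krt18). The cause of these moves was not tested.

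Of all genes, DESeq2 called 52 for genotype at 47 weeks, 13 at 7 weeks, 211 for age in Tert+/+, 530 for age in G3 Tert-/- and 7 for the interaction. limma had 14, 0, 95, 327 and 1, and without 1 library 2 to 19, 0 to 2, 56 to 124, 192 to 501 and 0 to 2. Fits of 2 groups alone called 6 for genotype at 47 weeks and 53 for age in Tert+/+. Without both libraries that stand apart 664 were called for age in G3 Tert-/- and 0 for the interaction. No paired analysis was possible because replicate numbers follow the listing and pair no mice. Depth limits Havcr1, Lcn2 and Krt20 most, with 110, 124 and 37 reads in all.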
